A study of Mus musculus with 24 samples.

Results

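The genes described here are 10 enzymes that make, desaturate, elongate and place long-chain fatty acids in mouse macrophages: Fasn and Acaca, Scd1 and Scd2, Fads1 and Fads2, Elovl1, Elovl5 and Elovl6, and Lpcat3. They were chosen by symbol as the members of this pathway, when earlier results of these data were known. They make up 10 of the 17737 genes with a tested probe set that is annotated to a single symbol. The array carries 23 probe sets for them, from 1 each for Fasn and Lpcat3 to 4 for Elovl1. All 23 passed the filter on low values, so none of the counts below leaves out a member. Scd1, Scd2, Fads1 and Fads2 lie on chromosome 19, Fasn and Acaca on chromosome 11, Elovl6 on chromosome 3, Elovl1 on chromosome 4, Lpcat3 on chromosome 6 and Elovl5 on chromosome 9 (RefSeq, GRCm38.p6).

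Bone marrow of 3 Pparg+/- LysCre mice (mice 1 to 3) and 3 Pparg fl/- LysCre mice (mice 4 to 6), both on a C57Bl/6 background, was grown with M-CSF, which drives macrophage differentiation, at 20 ng/ml over 10 days. Each mouse gave 4 cultures, grown without IL-4 (control) or with 20 ng/ml IL-4, which induces the alternative state, and each of these with vehicle (a mix of DMSO and ethanol) or with 1 µM rosiglitazone (RSG), a synthetic agonist of the nuclear receptor PPARγ. This gave 8 groups of 3 arrays, 24 in all. In LysCre mice the lysozyme locus expresses Cre recombinase, which directs deletion to myeloid cells. The comparison mice were therefore not wild-type: both genotypes carried LysCre and 1 null Pparg allele, and they differed in whether the other allele was intact or floxed. The values are deposited ratios, in which 1 is the median of a probe set over the arrays, so that a ratio compares arrays for 1 probe set and says nothing of the level of one gene against another. For the same reason the labelled cell type could not be checked by the brightness of macrophage markers.

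Fatty acid synthesis starts from acetyl-CoA. Acaca makes malonyl-CoA and Fasn uses it to build palmitate, which Elovl6 extends to stearate. Scd1 and Scd2 place the first double bond at the delta-9 position and give palmitoleate and oleate. Fads2 and Fads1, the delta-6 and delta-5 desaturases, work with Elovl5 on essential polyunsaturated fatty acids on the way to arachidonate and its relatives, Elovl1 makes very long saturated and monounsaturated chains, and Lpcat3 places polyunsaturated chains, arachidonate above all, into membrane phospholipids. Most of these genes are known as targets of the sterol-sensing factors SREBP or LXR.

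IL-4 divided the pathway. Averaged over both genotypes and both of vehicle and RSG, the delta-9 desaturase transcripts Scd1 and Scd2 rose, and Fasn, Fads1, Fads2 and Elovl6 fell. The largest rise was that of Scd2, 6.65-fold on its leading probe set (log2 change 2.73 ± 0.14, SE, 24 arrays; limma adjusted p = 1.5e-11). Fads1 fell by 1.39 ± 0.08 on the log2 scale, which is 2.62-fold (limma adjusted p = 8.7e-11), and Fasn by 1.07 ± 0.11, which is 2.10-fold (limma adjusted p = 2.2e-07). A change was called at an adjusted p below 0.05 (Benjamini-Hochberg over all 43349 probe sets tested) and at least 1.5-fold. By this rule 5 of the 23 probe sets rose and 6 fell, together 47.8%, where 18.5% of all probe sets were called, 10.2% of them higher and 8.3% lower. These 11 calls held when any 1 array or any 1 mouse was left out. A further 9 probe sets passed the adjusted p but changed by less than 1.5-fold. They were both Elovl5 and all 4 Elovl1 probe sets, Lpcat3, 1 of Acaca and 1 of Fads1, and among these 9 the Fads1 probe set was lower with IL-4 and the other 8 were higher. In the same comparison the median log2 change over all probe sets was 0.12.

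The 4 backgrounds were also compared singly. In Pparg+/- cells with vehicle 6 member probe sets rose and 4 fell (43.5% of the members, against 13.4% of all probe sets, 7.91% higher and 5.47% lower). In Pparg+/- cells with RSG 3 rose and 5 fell (34.8% against 11.6%, of which 6.57% higher and 5.07% lower). In Pparg fl/- cells with vehicle 4 rose and 7 fell (47.8% against 14.8%, of which 8.21% higher and 6.6% lower), and with RSG 6 rose and 5 fell (47.8% against 13.3%, of which 7.3% higher and 6.03% lower). A total of 16 probe sets were called in at least 1 background, 19 had the same sign in all 4, and none was called in opposite directions in different backgrounds. The 5 called in all 4 backgrounds were Fasn 1423828_at, Scd2 1415822_at and 1415823_at, Fads1 1423680_at and Elovl6 1417404_at. Counts in single backgrounds moved when a mouse was left out: they fell to 6 without mouse 2 in Pparg+/- cells with vehicle, to 5 without mouse 1 or without mouse 2 in Pparg+/- cells with RSG, to 6 without mouse 5 in Pparg fl/- cells with vehicle, and to 7 without the control RSG array of mouse 5 in Pparg fl/- cells with RSG. By the methods' t-test with Benjamini-Hochberg adjustment, Scd1 1415964_at, Scd2 1415824_at, Fads1 1440444_at, Elovl6 1417403_at and both called Fads2 probe sets kept none of their calls in single backgrounds. Over all probe sets the median log2 change with IL-4 was 0.10 to 0.12. With array medians set equal the members counted 5 up and 5 down in Pparg+/- cells with vehicle and 2 up and 5 down with RSG, and the Pparg fl/- counts were 4 up and 7 down with vehicle and 4 up and 5 down with RSG.

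**Figure D1:**
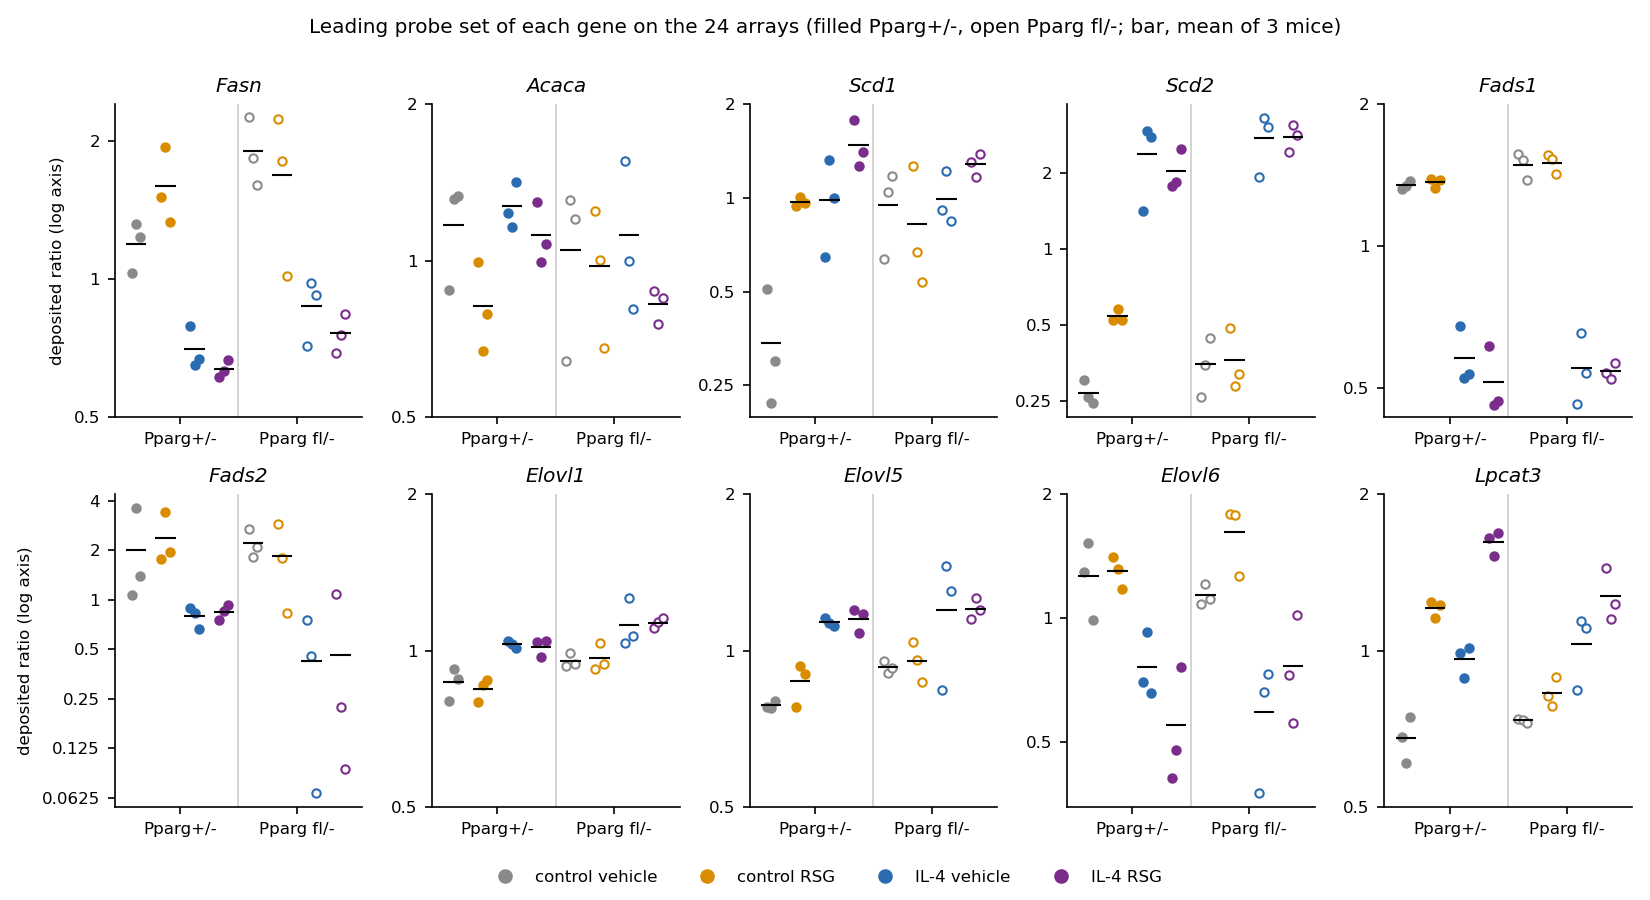
Deposited ratio (log axis) of the leading probe set of each of the 10 genes on the 24 arrays, grouped by genotype on the horizontal axis and coloured by culture condition, with bars at the mean of 3 mice. The IL-4 arrays of Scd2 lie above all control arrays and those of Fads1 and Fasn below them in both genotypes, while Lpcat3 is highest in the Pparg+/- cells with IL-4 and RSG.

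Because Fasn and Elovl6 fell and Elovl5 and Lpcat3 were higher with IL-4, their promoters are shown for comparison. RefSeq promoters (GRCm38.p6, 250 bases before to 50 after each start) were at hand for 7 of the 10 genes, in 8 windows, since Elovl1 has 2. The 250 bases before the start are printed 5′ to 3′ on the strand of the gene: Fasn at chr11:120824548-120824797 (minus strand), Elovl6 at chr3:129532136-129532385 (plus strand), Elovl5 at chr9:77917115-77917364 (plus strand) and Lpcat3 at chr6:124662854-124663103 (plus strand). Capitals mark a CCAAT box or, in Elovl5, also an E-box.
Fasn: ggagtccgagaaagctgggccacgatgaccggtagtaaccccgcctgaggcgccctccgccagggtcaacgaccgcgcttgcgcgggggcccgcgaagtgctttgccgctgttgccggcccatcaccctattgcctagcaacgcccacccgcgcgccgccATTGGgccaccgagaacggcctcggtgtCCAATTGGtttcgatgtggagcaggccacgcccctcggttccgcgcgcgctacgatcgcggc
Elovl6: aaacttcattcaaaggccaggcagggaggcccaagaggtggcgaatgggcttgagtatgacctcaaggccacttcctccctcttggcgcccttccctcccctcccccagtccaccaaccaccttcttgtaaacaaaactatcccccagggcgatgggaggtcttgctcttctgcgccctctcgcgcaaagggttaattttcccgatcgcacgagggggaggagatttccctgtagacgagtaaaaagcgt
Elovl5: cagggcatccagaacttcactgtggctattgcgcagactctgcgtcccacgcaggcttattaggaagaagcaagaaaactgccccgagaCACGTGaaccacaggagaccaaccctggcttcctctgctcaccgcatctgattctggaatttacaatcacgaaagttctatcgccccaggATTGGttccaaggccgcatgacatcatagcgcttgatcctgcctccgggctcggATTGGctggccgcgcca
Lpcat3: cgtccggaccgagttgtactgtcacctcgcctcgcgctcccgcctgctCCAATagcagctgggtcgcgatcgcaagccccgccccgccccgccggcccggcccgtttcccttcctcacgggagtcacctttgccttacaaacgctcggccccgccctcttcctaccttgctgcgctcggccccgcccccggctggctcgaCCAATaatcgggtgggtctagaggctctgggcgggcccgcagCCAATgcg
Motifs were searched on both strands in the whole window, from 250 bases before to 50 after the start. The CCAAT box (CCAAT), bound by NF-Y, was in 4 of the 8 windows and in 37.4% of all 32851 promoters of the table. It stood 3 times each before the starts of Fasn and Lpcat3, and in Fasn a pair on opposite strands overlapped. The E-box CACGTG was in 1 window, that of Elovl5, and in 7.15% of all promoters. The core of the sterol regulatory element, TCACNCCAC, was in none of the 8 windows and in 1.24% of all promoters. Direct repeats of AGGTCA with 4 bases between them (DR4, read by LXR) or 1 base (DR1, read by PPAR) were in none, as in nearly all promoters (0.0152% and 0.0396% hold one). The STAT6-type palindrome, TTC and GAA with 4 bases between, was in 1 Elovl1 window and in 6.95% of all promoters. These matches are letters in a short window and were not tested for binding.

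The delta-9 desaturases gave the largest rises. Scd2, a stearoyl-CoA desaturase abundant in brain, had ratios of 0.302, 0.258 and 0.245 in the 3 Pparg+/- control cultures with vehicle and of 1.42, 2.95 and 2.79 with IL-4 (probe set 1415822_at). In Pparg fl/- cells the ratios were 0.258, 0.348 and 0.444 without IL-4 and 1.94, 3.31 and 3.05 with it. Every IL-4 culture was above every control culture of its genotype. The change was 8.48-fold in Pparg+/- cells with vehicle (log2 3.08 ± 0.28, SE, limma adjusted p = 4.6e-07) and 7.89-fold in Pparg fl/- cells with vehicle (log2 2.98 ± 0.28, limma adjusted p = 4.6e-07). With RSG it was 7.84-fold in Pparg fl/- cells and 3.73-fold in Pparg+/- cells. The Pparg+/- control cultures with RSG had ratios of 0.523, 0.580 and 0.521, the highest mean of the 4 control groups (0.542). With IL-4 and RSG the Pparg+/- mean was the lowest of the 4 IL-4 groups (2.04, against 2.384 to 2.795 in the others). With RSG, the IL-4 responses of the genotypes differed by 1.07 ± 0.39 on the log2 scale, which did not pass the adjustment (limma adjusted p = 0.99). A second probe set, 1415823_at, was called in all 4 backgrounds with log2 changes of 1.82 to 2.70, and for both probe sets the calls held without any 1 array or mouse and under every other alternative run. The third, 1415824_at, was called by limma in Pparg fl/- cells only, where 1 control culture (mouse 4, vehicle) had a ratio of 0.0526 against 0.748 and 0.714 in the other two. Its call with RSG was lost without any 1 of its 6 arrays (limma adjusted p = 0.051 to 0.18), without mouse 5 (0.19) or mouse 6 (0.10), and with the mouse as a block (0.058). In Pparg+/- cells all its IL-4 arrays were higher too, and with a floor of 0.1 on the ratios the change with vehicle passed (log2 1.62, limma adjusted p = 0.038). With an offset of 0.1 it passed as well (log2 1.46, limma adjusted p = 0.027). The methods' t-test called this probe set in Pparg+/- cells with vehicle and with RSG (Benjamini-Hochberg adjusted p = 0.016 and 0.019).

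Scd1, the desaturase best known from liver and skin, was raised on both of its probe sets over all backgrounds (log2 0.74 ± 0.17 and 1.31 ± 0.18, limma adjusted p = 0.0016 and 7.7e-06), but the backgrounds were uneven. On 1415964_at the Pparg+/- cultures with vehicle went from 0.509, 0.219 and 0.298 without IL-4 to 0.644, 1.32 and 0.997 with it, a 2.94-fold rise (log2 1.56 ± 0.34, limma adjusted p = 0.003). The Pparg fl/- cultures with vehicle had 0.637, 1.04 and 1.17 without IL-4 and 0.911, 1.22 and 0.843 with it, and these overlapped (log2 0.09 ± 0.34). The difference between the genotypes, -1.47 ± 0.48, did not pass the adjustment (limma adjusted p = 0.88), and the Pparg+/- call was lost without mouse 2 (0.13) or mouse 3 (0.067). The other probe set, 1415965_at, rose in Pparg+/- cells with vehicle (3.18-fold), in Pparg fl/- cells with vehicle (2.55-fold) and in Pparg fl/- cells with RSG (2.26-fold, with overlapping arrays). In Pparg fl/- cells with vehicle this was lost without either culture of mouse 5 (limma adjusted p = 0.061 and 0.063) or all of them (0.12). With RSG it was lost without the control arrays of mice 5 and 6 (0.12 and 0.077), the IL-4 arrays of mice 4 and 6 (0.16 and 0.097), or all arrays of mouse 4 or mouse 6 (0.095 and 0.19), each left out in turn. The 2 probe sets of Scd1 thus gave different values in the same Pparg fl/- cells. Scd1 and Scd2 are closely related in sequence, and whether their probe sets share signal was not tested.

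The polyunsaturated desaturases fell. Fads1 had ratios of 1.32, 1.34 and 1.38 in Pparg+/- control cultures with vehicle and 0.680, 0.527 and 0.537 with IL-4 (1423680_at). The Pparg fl/- cultures had 1.57, 1.52 and 1.38 without IL-4 and 0.464, 0.657 and 0.540 with it. No IL-4 culture reached a control culture, with or without RSG. The falls were 2.33-fold in Pparg+/- cells with vehicle, 2.67-fold in Pparg+/- cells with RSG, 2.71-fold in Pparg fl/- cells with vehicle and 2.77-fold in Pparg fl/- cells with RSG (limma adjusted p = 2.6e-05 to 3.5e-06), and every one of them held in all alternatives run. The log2 changes of this probe set lay between -1.47 and -1.22. The second Fads1 probe set, 1440444_at, moved the same way but less, with log2 changes of -0.67 to -0.32. It was called in both genotypes with vehicle. The Pparg+/- call was lost without 4 of its 6 arrays in turn (the control arrays of mice 2 and 3 and the IL-4 arrays of mice 1 and 3, limma adjusted p = 0.050 to 0.12) and without any of mice 1, 2 and 3 (0.062, 0.093 and 0.28). The Pparg fl/- call was lost without the control arrays of mice 4 and 5 or the IL-4 arrays of mice 5 and 6 (0.074 to 0.13) and without mouse 5 (0.24) or mouse 6 (0.11).

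Fads2 was lower with IL-4 but varied widely between cultures. On 1419031_at the Pparg+/- control cultures with vehicle had ratios of 1.07, 3.61 and 1.39 and the IL-4 cultures 0.887, 0.836 and 0.660. The Pparg fl/- cultures went from 2.69, 1.83 and 2.09 to 0.751, 0.453 and 0.0666. Over all backgrounds the fall was 4.04-fold (log2 -2.01 ± 0.40, limma adjusted p = 0.00042). In single backgrounds it was called in Pparg fl/- cells with vehicle (7.69-fold, limma adjusted p = 0.013) and with RSG (5.77-fold, limma adjusted p = 0.034, with overlapping arrays), and in Pparg+/- cells the log2 changes were -1.15 ± 0.80 and -1.43 ± 0.80 without a call. The lowest culture, mouse 6, carried much of the Pparg fl/- values: the log2 change was -1.90 without its IL-4 vehicle array (limma adjusted p = 0.091) and -1.73 without its IL-4 RSG array (0.19). Leaving out mouse 5 also ended both calls (0.055 with vehicle and 0.22 with RSG), as did mouse 6 with vehicle (0.062), and with RSG each of the control arrays of mice 4 and 5 and the IL-4 array of mouse 5 (0.14, 0.09 and 0.10). A second probe set, 1449325_at, fell in Pparg+/- cells with RSG (3.44-fold) and in Pparg fl/- cells with vehicle (2.93-fold), calls that were lost without mouse 1 (0.096) or mouse 2 (0.14) in the first case and without any of mice 4, 5 and 6 (0.058 to 0.081) in the second. The third, 1443838_x_at, ranged from 0.219 to 2.90 over the control cultures and was called nowhere.

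Of the synthetic enzymes Fasn fell and Acaca did not move as one. Fasn ratios were 1.03, 1.32 and 1.24 in Pparg+/- control cultures with vehicle and 0.792, 0.649 and 0.671 with IL-4. The Pparg fl/- cultures had 2.26, 1.84 and 1.61 without IL-4 and 0.716, 0.983 and 0.924 with it. IL-4 cultures lay below control cultures in all 4 backgrounds without overlap. The falls were 1.70-fold in Pparg+/- cells with vehicle, 2.48-fold with RSG, 2.17-fold in Pparg fl/- cells with vehicle and 2.11-fold with RSG (limma adjusted p = 0.021, 0.00037, 0.0012 and 0.0018). The smallest of them, in Pparg+/- cells with vehicle, was lost without either array of mouse 2 or of mouse 3 in turn (limma adjusted p = 0.065 to 0.083) and without all arrays of mouse 2 (0.21) or mouse 3 (0.18). The methods' t-test, Benjamini-Hochberg adjusted, kept the call in Pparg+/- cells with RSG and lost it in the other backgrounds (adjusted p = 0.050 in Pparg+/- cells with vehicle, and 0.073 and 0.17 in Pparg fl/- cells with vehicle and with RSG). Acaca, which makes the malonyl-CoA that Fasn uses, had 1 probe set that overlapped in every background (1427595_at, log2 changes of -0.20 to 0.46) and 1 that rose in Pparg+/- cells with vehicle (1434185_at, 1.67-fold, limma adjusted p = 0.0012) and in Pparg fl/- cells with RSG (1.63-fold, limma adjusted p = 0.0018). On that probe set the Pparg+/- cultures went from 0.638, 0.676 and 0.821 to 0.997, 1.30 and 1.28 with vehicle, and with RSG the groups overlapped (1.00-fold).

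The elongases went different ways. Elovl6, which extends palmitate, fell on 2 of its 3 probe sets. On 1417404_at the Pparg+/- ratios with vehicle went from 1.45, 1.64 and 1.19 to 0.812, 0.663 and 0.722, and the Pparg fl/- ratios from 1.88, 1.96 and 1.32 to 0.751, 0.710 and 0.762. All 3 IL-4 cultures were lower in each case. The falls were 1.94-fold and 2.52-fold in Pparg+/- cells with vehicle and with RSG, and 2.29-fold and 3.25-fold in Pparg fl/- cells (limma adjusted p = 0.0059, 0.00043, 0.00086 and 2.8e-05). Without mouse 2 the first of these did not pass (0.14), and by the methods' t-test the Pparg fl/- calls did not (Benjamini-Hochberg adjusted p = 0.055 with vehicle and 0.081 with RSG). The leading probe set, 1417403_at, fell in 3 backgrounds, by 1.30, 1.00 and 1.10 on the log2 scale. These calls were lost without mouse 1 (0.094) or mouse 2 (0.056) in Pparg+/- cells with RSG, without mouse 4 (0.14), mouse 5 (0.062), the IL-4 array of mouse 4 (0.075) or the control array of mouse 5 (0.057) in Pparg fl/- cells with vehicle, and without mouse 4 (0.055), mouse 5 (0.17) or the IL-4 array of mouse 5 (0.056) in Pparg fl/- cells with RSG. The third probe set, 1442656_at, was called nowhere (log2 changes of -0.97 to -0.22).

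Elovl5 and Elovl1 were higher with IL-4 by small amounts on average. Elovl5 on 1415840_at had ratios of 0.778, 0.777 and 0.801 in Pparg+/- control cultures with vehicle and 1.16, 1.13 and 1.11 with IL-4. That is 1.44-fold (log2 0.53 ± 0.14, limma adjusted p = 0.014), below the threshold of 1.5-fold. In Pparg fl/- cells with vehicle mouse 4 was lower with IL-4 on this probe set (log2 -0.18) and mice 5 and 6 were higher (0.68 and 0.50). The other Elovl5 probe set, 1437211_x_at, crossed the threshold by little in Pparg+/- cells with vehicle (1.55-fold). It was under it without the control array of mouse 1 or the IL-4 array of mouse 2, and with array medians set equal. In Pparg fl/- cells with vehicle it was called without the control or the IL-4 array of mouse 4 (log2 0.61 each). Without all arrays of mouse 4 both Elovl5 probe sets were called there (1437211_x_at 0.67 and 1415840_at 0.59, limma adjusted p = 0.00089 and 0.0013). The 4 probe sets of Elovl1 had log2 changes of 0.13 to 0.73 over the 4 backgrounds, of which 1 passed, 1443820_x_at in Pparg+/- cells with RSG (1.66-fold, limma adjusted p = 0.043). This call was lost without any 1 of its 6 arrays (0.06 to 0.14) and without mouse 1, 2 or 3 (0.065, 0.13 and 0.36). Over single mice this probe set changed by -0.06 to 1.09 on the log2 scale. Beside the median shift of all probe sets, 0.10 to 0.12 in these comparisons, the changes of Elovl1 on its leading probe set were 0.22 to 0.27.

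**Figure D2:**
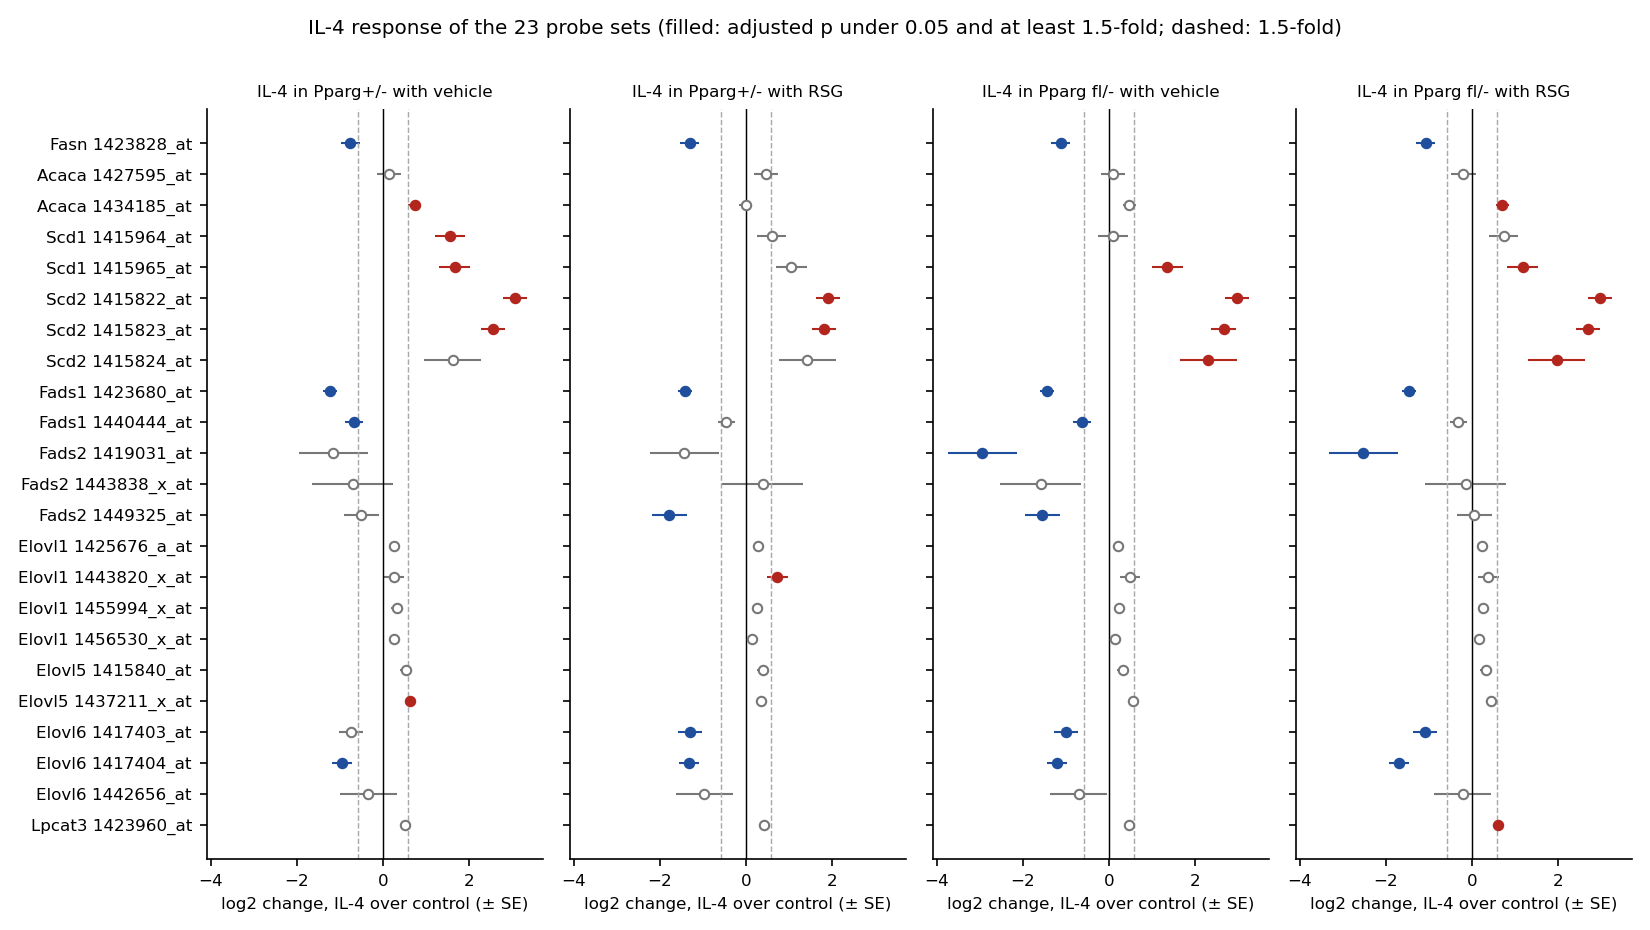
Log2 change with IL-4 over control (horizontal axis, bars are SE) of all 23 probe sets in the 4 backgrounds, with filled points where the adjusted p was below 0.05 and the change at least 1.5-fold, and dashed lines at 1.5-fold. Scd2 lies to the right in every panel, Fasn, Fads1 1423680_at and Elovl6 1417404_at to the left, and the probe sets with wide bars are those of Fads2, Scd2 1415824_at and Elovl6 1442656_at.

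Lpcat3, the acyltransferase that brings polyunsaturated chains into phospholipids, was the member that RSG raised. In Pparg+/- control cultures its ratios were 0.682, 0.609 and 0.746 with vehicle and 1.24, 1.15 and 1.23 with RSG. In Pparg+/- IL-4 cultures they were 0.990, 0.887 and 1.01 with vehicle and 1.64, 1.52 and 1.68 with RSG. All 3 mice rose in both, without overlap. The rise was 1.78-fold without IL-4 (log2 0.83 ± 0.12, SE, limma adjusted p = 0.025) and 1.68-fold with it (log2 0.75 ± 0.12, limma adjusted p = 0.012). These were the only member probe sets called with RSG, 1 of 23 (4.35%) in each comparison, where 0.0115% and 0.173% of all probe sets were called, 0.00923% and 0.0877% higher and 0.00231% and 0.0854% lower. The size held and the call did not when arrays were dropped. Without IL-4 it was lost without 5 of the 6 arrays in turn, the exception being the vehicle array of mouse 3 (limma adjusted p = 0.056 to 0.12 in the others), and without mouse 1, 2 or 3 (0.50, 0.49 and 0.32). With IL-4 it was lost without the RSG arrays of mice 1 and 3 or the vehicle array of mouse 2 in turn (0.064 to 0.072), and without mouse 1, 2 or 3 (0.24, 0.22 and 0.25). The methods' t-test, Benjamini-Hochberg adjusted, called neither (adjusted p = 0.37 and 0.28). Without the Pparg+/- IL-4 RSG array of mouse 3, Fads2 1449325_at was called lower with RSG in its place (log2 -1.80, limma adjusted p = 0.036, against -1.16 ± 0.41 and 0.45 with all arrays). IL-4 itself changed Lpcat3 by 1.34-fold to 1.53-fold in the 4 backgrounds. All 4 passed the adjusted p, and 1, in Pparg fl/- cells with RSG (1.53-fold, limma adjusted p = 0.0013), was past 1.5-fold, which it was not without the IL-4 array of mouse 4, the control array of mouse 5 or all arrays of mouse 4, nor with array medians set equal. The methods' t-test did not call this change either (Benjamini-Hochberg adjusted p = 0.057). Without mouse 4 the change in Pparg fl/- cells with vehicle was called (log2 0.62, limma adjusted p = 0.0017).

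The RSG response of Lpcat3 in Pparg fl/- cells was 0.18 ± 0.12 without IL-4 on the log2 scale and was not called. Control cultures had 0.740, 0.736 and 0.728 with vehicle and 0.817, 0.783 and 0.891 with RSG, and IL-4 cultures 0.840, 1.14 and 1.11 with vehicle and 1.44, 1.15 and 1.23 with RSG. RSG cultures were above vehicle cultures in both, and with IL-4 the change was 0.32 ± 0.12 on the log2 scale (limma adjusted p = 0.89). Mouse 4 gave most of that mean, with a log2 change of 0.78 against 0.02 and 0.15 in mice 5 and 6. The change was 0.08 without mouse 4 (limma adjusted p = 0.90) and 0.18 without its IL-4 vehicle array (0.69). No member was called with RSG in these cells, with 0% of all probe sets called without IL-4 and 0.00923% with it. By unadjusted limma p below 0.05 the members counted 0 of 23 without IL-4 and 2 with it, where 4.25% and 4.86% of all probe sets did so, against 7 and 2 in the Pparg+/- cells, where 5.27% and 7.29% of all did. The difference of the Lpcat3 response between genotypes was -0.66 ± 0.17 without IL-4 (limma adjusted p = 0.64), a comparison added after values were seen, and -0.43 ± 0.17 with IL-4 (limma adjusted p = 1). The latter was -0.66 without mouse 4 (limma adjusted p = 0.44) and -0.57 without its IL-4 vehicle array (0.62). Neither passed the adjustment over all probe sets, and 0.00231% and 0% of all probe sets did. Ranked over all 8 groups, Lpcat3 was lowest in Pparg+/- control cultures with vehicle (0.679) and highest in Pparg+/- IL-4 cultures with RSG (1.61), whose arrays did not overlap those of the next group, the Pparg fl/- IL-4 cultures with RSG (1.27).

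**Figure D3:**
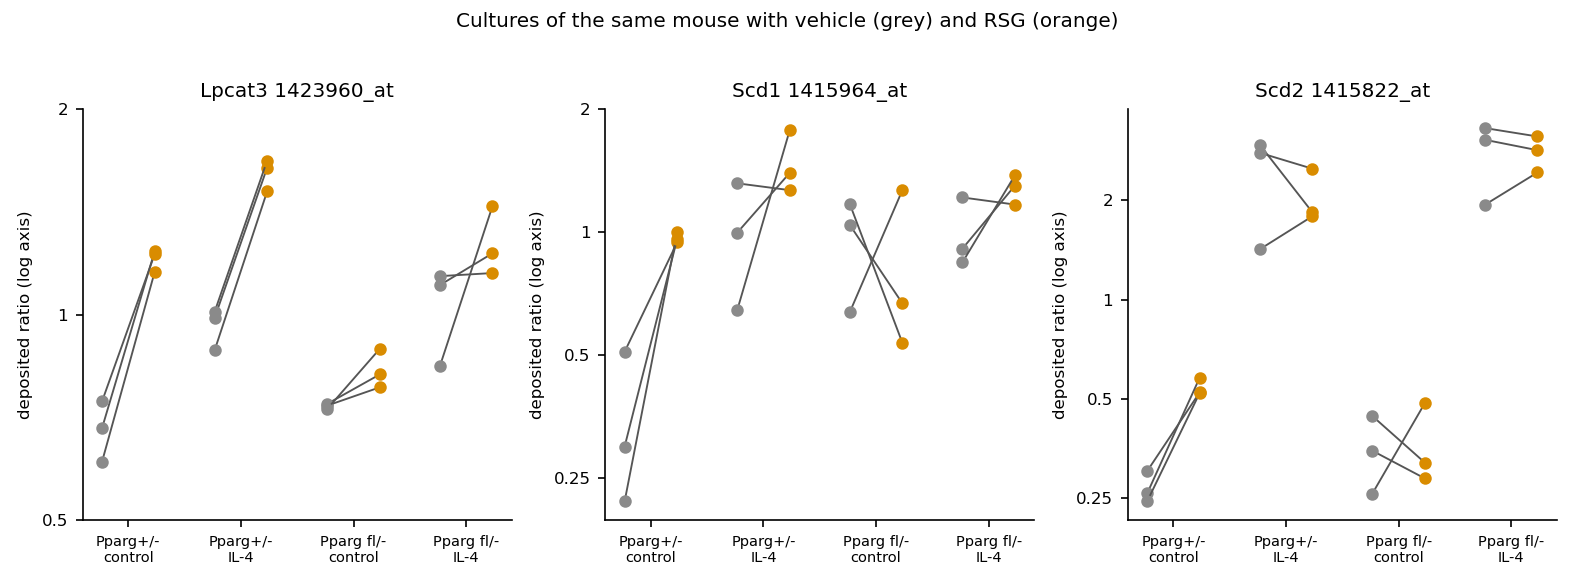
Deposited ratio (log axis) of Lpcat3, Scd1 and Scd2 in cultures of the same mouse with vehicle (grey) and with RSG (orange), joined by lines, for both genotypes without (control) and with IL-4. All 3 lines of Lpcat3 rise in each condition, with mean log2 changes of 0.83 and 0.75 in Pparg+/- and 0.18 and 0.32 in Pparg fl/- cells, and the lines of Scd1 and Scd2 all rise in Pparg+/- control cultures and are mixed in the other conditions.

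The delta-9 desaturases were also higher with RSG in Pparg+/- control cultures, but did not pass. Scd1 1415964_at went from 0.509, 0.219 and 0.298 to 0.944, 1.00 and 0.963 (log2 1.59 ± 0.34, limma adjusted p = 0.26). Scd2 1415822_at went from 0.302, 0.258 and 0.245 to the ratios given above (log2 1.02 ± 0.28, limma adjusted p = 0.54). All 3 mice were higher on both, and on Scd2 1415823_at as well (log2 1.05 ± 0.28, adjusted p = 0.51). On the third Scd2 probe set, 1415824_at, 1 of the 3 mice was higher (log2 changes of -0.32, -0.21 and 0.26, and -0.09 ± 0.66 in the fit). In this comparison 7 member probe sets did not overlap between vehicle and RSG, all of them higher with RSG, where 12.2% of all probe sets did not overlap and 6.44% were higher. With RSG in Pparg fl/- control cultures 2 member probe sets did not overlap, both higher with RSG, where 8.66% of all did not and 5.1% were higher. With IL-4 the Scd2 response to RSG in Pparg+/- cells differed from that without it by -1.19 ± 0.39 on the log2 scale, which did not pass (limma adjusted p = 0.94). Among the RSG control genes, Fabp4 was 1.81-fold and 2.78-fold higher with RSG in Pparg+/- control and IL-4 cells on its leading probe set without a call (limma adjusted p = 0.81 and 0.088). On its probe set of smallest spread the log2 changes were 0.31 and 0.96 (± 0.23, SE) in these cells. In Pparg fl/- control and IL-4 cells they were 0.21 and 0.81, and none of these was called. Angptl4 was called on its probe set of smallest spread, and in both genotypes with IL-4 (log2 4.12 ± 0.49 in Pparg+/- and 4.32 ± 0.49 in Pparg fl/-, limma adjusted p = 0.0041 and 0.0015).

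No member was called between the genotypes in any of the 4 culture conditions. All probe sets gave 0% in control cells with vehicle, 0.00461% in control cells with RSG, 0.00231% in IL-4 cells with vehicle and 0.501% in IL-4 cells with RSG, and by unadjusted limma p below 0.05 the members counted 5, 2, 2 and 3 of 23, where 9.11%, 9.29%, 9.14% and 11.4% of all probe sets did. In control cells with vehicle 9 member probe sets did not overlap between the genotypes, all 9 higher in Pparg fl/- cells, where 18.6% of all probe sets did not overlap and 13.5% were higher. With RSG and no IL-4 6 did not overlap, 2 of them higher in Pparg fl/- cells and 4 lower (16.4% of all probe sets, 11.8% higher and 4.58% lower). With IL-4 and vehicle 1 did not, and it was lower (10.7% of all, 6.66% higher and 4.05% lower). With IL-4 and RSG 9 did not, 6 higher and 3 lower (23.1% of all, 17.1% higher and 5.92% lower). Without IL-4 and with vehicle, Scd1 1415964_at was 2.86-fold higher in Pparg fl/- cells (log2 1.52 ± 0.34, limma adjusted p = 0.31) and Fasn 1.58-fold (log2 0.66 ± 0.22, limma adjusted p = 0.43). The Pparg+/- control vehicle arrays of Scd1 1415964_at are the same ones used for its IL-4 and RSG changes above, so these are not separate results. Their mean ratio (0.342) was the lowest of the 8 groups, without overlap with the next (0.824). With RSG, Lpcat3 had a log2 difference of -0.54 ± 0.12 (Pparg fl/- against Pparg+/-) without IL-4 (limma adjusted p = 0.15) and of -0.35 ± 0.12 with it (adjusted p = 0.26), again without overlap. With array medians set equal the first of these passed (log2 -0.62, limma adjusted p = 0.038). Fads2 1449325_at was higher in Pparg fl/- cells with IL-4 and RSG (log2 1.37 ± 0.41, limma adjusted p = 0.16), and it passed without the Pparg+/- IL-4 RSG array of mouse 3 (log2 2.01, adjusted p = 0.014) or without all arrays of mouse 3 (0.045). The IL-4 response of the members did not differ between the genotypes by the same rule, with vehicle or with RSG (0 of 23 called, with 1 and 4 at an unadjusted limma p below 0.05 against 4.83% and 4.37% of all probe sets; 0% and 0.00461% of all probe sets called). Pparg itself, on 1420715_a_at, had mean ratios of 0.549 ± 0.035 (SD, n = 3) and 0.790 ± 0.267 in Pparg+/- and Pparg fl/- control cells with vehicle, and 1.73 ± 0.28 and 2.64 ± 0.69 with IL-4. The position of this probe set relative to the floxed part was not analysed here, so it checks nothing of the deletion.

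Around the pathway, the genes of its control and of sterol synthesis were read with IL-4 from lists, with 1 probe set per gene. Of 11 tested genes that control lipogenesis, 2 fell in all 4 backgrounds. They were Srebf2, the SREBP of cholesterol synthesis (log2 -1.36 to -0.90), and Insig1, which holds SREBP in the endoplasmic reticulum (-1.08 to -0.96). Nr1h3, which encodes LXRα, rose in Pparg+/- cells with RSG (0.72) and had 0.44 to 0.53 without a call elsewhere. Srebf1, the SREBP of fatty acid synthesis, was called in no background. Of 5 tested genes of cholesterol synthesis 2 to 3 fell in each background, and Idi1 (-3.21 to -2.49) and Cyp51 (-1.69 to -1.43) fell in all. The median log2 change of the 5 genes was -1.04 to -0.58, against 0.10 to 0.13 over the leading probe sets of all genes. On its probe set of smallest spread Fdft1 was called lower in all 4 backgrounds (-1.60 to -1.45), and Hmgcs1 on its own in none (-0.34 to -0.12). Nr1h2 was not analysed here.

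Of 6 tested genes that supply acetyl-CoA and NADPH, Me1, malic enzyme, fell in 3 backgrounds (-3.08, -2.72 and -2.29) and had -1.52 without a call in Pparg+/- cells with RSG. On its probe set of smallest spread Me1 was called in both Pparg fl/- backgrounds (-0.91 with vehicle and -1.30 with RSG) and in Pparg+/- cells with RSG (-1.08), and had -0.71 in Pparg+/- cells with vehicle without a call. None of the 6 rose. Of 17 other desaturases, elongases and partner enzymes 1 to 3 rose and 1 to 2 fell, depending on the background. Elovl3, an elongase of saturated chains, rose in all 4 (1.16 to 1.52), Hacd1, a dehydratase of the elongation cycle, in 3 and Fads3 in 2, while Cyb5a, the cytochrome b5 that passes electrons to desaturases, fell in 3. Cyb5r3, its reductase, was called lower on its leading probe set in Pparg+/- cells with vehicle (-2.26 ± 0.76), and on its probe set of smallest spread higher in all 4 (0.67 to 0.85). On leading probe sets Fads6 fell in Pparg+/- cells with RSG (-1.15) and Hacd2, another dehydratase of the cycle, in Pparg fl/- cells with vehicle (-0.93). On their probe sets of smallest spread Fads6 (-1.53 to -1.33) and Hacd2 (-1.11 to -0.93) were called lower in all 4. Among 6 other lysophospholipid acyltransferases, Lpcat2, which also makes platelet-activating factor, fell in all 4 (-2.41 to -1.75), and Mboat2 rose in Pparg+/- cells with RSG (1.60). Mboat1 was called lower in all 4 on its probe set of smallest spread (-4.66 to -3.97). On its own such probe set Mboat2 was called higher in Pparg+/- cells with RSG (1.83) and in Pparg fl/- cells with vehicle (1.80) and with RSG (1.97). It had 0.91 without a call in Pparg+/- cells with vehicle. Of 6 acyl-CoA synthetases and binding proteins Acsl4, which prefers arachidonate, rose in all 4 (0.73 to 0.93). With RSG 1 gene of these 6 lists was called, the fatty acid transporter Slc27a1 in Pparg+/- IL-4 cells (log2 0.77 ± 0.13, limma adjusted p = 0.014), and on its probe set of smallest spread it was not (0.52 ± 0.12, limma adjusted p = 0.12). G6pdx and Scd4 were not analysed here.

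**Figure D4:**
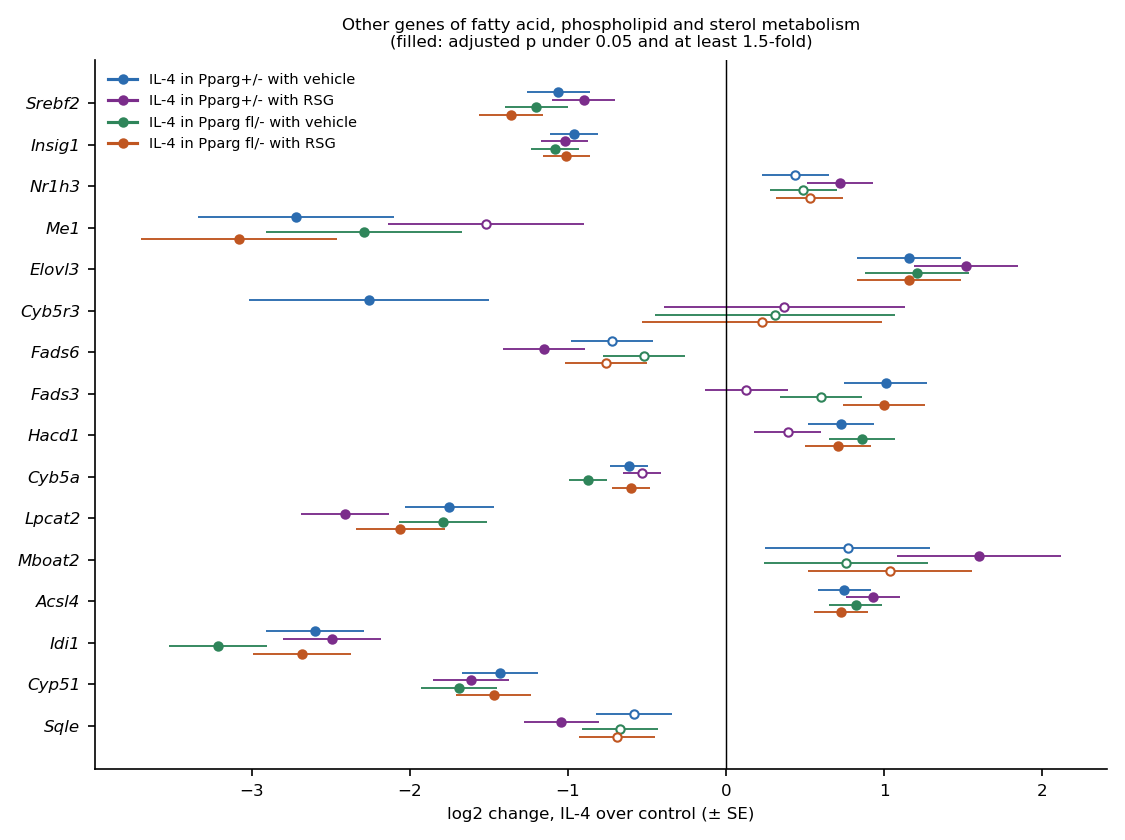
Log2 change with IL-4 over control (horizontal axis, bars are SE) of 16 genes of the pathway lists called in at least 1 of the 4 backgrounds, at most 6 from each list, which leaves out Hacd2, coloured by background, with filled points where the change was called. Srebf2, Insig1, Lpcat2, Idi1 and Cyp51 are filled to the left and Elovl3 and Acsl4 to the right in all 4 backgrounds.

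Other cell types' markers also changed with IL-4, in the same cultures as every IL-4 change above. Of 8 neutrophil markers 6 or 7 fell in each background, and their mean log2 ratio per array ranged from 0.47 to 1.61 without IL-4 and from -3.94 to -3.0 with it. All 5 tested proliferation markers fell in each background (0.83 to 2.60 without IL-4, -4.62 to -2.86 with it), and 3 to 5 of 7 stromal markers fell (0.15 to 2.62, and -2.88 to -1.18). In control cells with vehicle the stromal mean was 0.86 to 2.62 in Pparg fl/- and 0.37 to 0.58 in Pparg+/- cells, without overlap. In control cells with RSG the genotypes overlapped (0.15 to 1.75 and 0.67 to 1.07). Of 3 tested adipocyte markers none was called. Of 8 macrophage markers 1 or none rose and 2 or 3 fell, and their mean log2 ratio ranged from 0.06 to 0.67 without IL-4 and from -0.45 to 0.47 with it. Whether fewer cells of a type or less RNA per cell underlies a lower ratio cannot be told apart in these cultures. The part of the other cells in the members' IL-4 changes, or in their differences between genotypes, was not tested. With RSG none of the neutrophil, stromal, proliferation or adipocyte markers was called in either genotype, and of the macrophage markers Cd14 fell in Pparg+/- IL-4 cells. The IL-4 markers Retnla, Arg1 and Chil3 rose in all 4 backgrounds. The IL-4 vehicle array of mouse 4 had the largest spread around its group (SD of residuals 0.889, against 0.738 to 0.836 on the others). Without it the members counted 6 up and 6 down in Pparg fl/- cells with vehicle.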

How the data were processed

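RNA of 24 bone marrow-derived macrophage cultures was hybridised to Affymetrix whole-genome mouse arrays. The authors summarised the arrays with GC-RMA in GeneSpring 7.3 and divided each value by the median of its array and then by the median of its probe set. The deposited values are these ratios, and the last step the methods name, a division by the vehicle control, is not in them, since 82.2% of probe sets had a median within 0.005 of 1 over all arrays. The depth of an array is its signal over background, which the ratios do not carry. The 3 arrays per group limit the precision. Probe sets were named from the platform annotation (34945 with 1 symbol, 932 with several, 9160 with none), updated through RefSeq.

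The 64 control probe sets and 1688 probe sets that did not reach the array median on 3 arrays were left out. The log2 ratios of the other 43349 were fitted with limma 3.58.1 (R 4.3.3) as 8 group means, letting the variance follow the mean, with Benjamini-Hochberg adjustment over all of them. A change was called at an adjusted p below 0.05 and 1.5-fold. Replicates are mice. The same mouse gave 4 cultures, which pairs them by animal, and arrays of one mouse deviated together with correlations of -0.0567 to 0.0442 over 36 pairs. The fit was tested on simulated data. Tables and figures used Python 3.11.15, pandas 2.3.3 and matplotlib 3.10.9.

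All 10 genes were named with every probe set. The leading probe set had a plain name before a suffixed one, then the lowest number. From each pathway list the genes called with IL-4 were named, at most 6. The members and lists were chosen with earlier results of these data known. Alternatives were 2 scalings, an offset and a floor of 0.1, no filter, no trend, the mouse as a block, the methods' t-test, another probe set per gene, and leaving out each array or mouse. The RSG response between genotypes without IL-4, and that with against without IL-4 in Pparg fl/- cells, were added after values were seen.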

Additional observations from a re-analysis of the deposited data

Results flagged for a closer look

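Of 138 pairs of RSG or IL-4 responses compared by their sign in each mouse, 4 had all 3 mice of one group moving one way and all 3 of the other the opposite way, which is 2.90% of the pairs. Over all probe sets tested the same held for 2.72% of pairs. The 4 differences did not pass the adjusted p of limma over all probe sets. Fasn was higher with RSG in all 3 Pparg+/- control cultures (log2 changes of 0.55, 0.56 and 0.11) and lower in all 3 Pparg fl/- control cultures (-0.01, -0.02 and -0.66), a difference of -0.64 on the log2 scale. Fasn was also lower with RSG in all 3 Pparg+/- IL-4 cultures (-0.37, -0.04 and -0.01), which differs from the control cultures by -0.55. Acaca 1434185_at was higher with RSG in Pparg+/- control cultures and lower in Pparg+/- IL-4 cultures, a difference of -0.74 (limma adjusted p = 0.81). Fads2 1449325_at was lower with RSG in all 3 Pparg fl/- control cultures and higher in all 3 Pparg fl/- IL-4 cultures, a difference of 1.6 (limma adjusted p = 1).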

How the results depend on the processing

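Of 1205 recomputed member values, 1169 kept their direction and side of the threshold under the alternatives, 33 dropped below it, 3 rose above it and none changed sign. With arrays or mice left out, 1626 of 1719 kept both, 89 dropped below, 4 rose above and none changed sign. These tallies count rises above the threshold for leading probe sets only, and losses for the others too. Calls gained by Scd2 1415824_at and Fads1 1440444_at under the alternatives are not in them. Nor are those gained by Scd1 1415965_at, Elovl5 1437211_x_at and Fads2 1449325_at with arrays or mice left out. The methods' t-test left 3 member probe sets called with IL-4 in Pparg fl/- cells with vehicle, 4 with RSG, and 0 with RSG in either Pparg+/- comparison. With array medians set equal, 1 was called between the genotypes in control cells with RSG (Lpcat3, lower). That scaling also turned the split of all IL-4 calls in Pparg+/- cells with vehicle from 3428 higher and 2370 lower to 2656 and 2899. Leaving out 1 array or mouse gave 6 to 9 calls with IL-4 in Pparg+/- cells with vehicle, 5 to 8 with RSG, 6 to 12 in Pparg fl/- cells with vehicle and 7 to 10 with RSG, 0 to 1 with RSG in each Pparg+/- comparison, 0 to 1 between genotypes with IL-4 and RSG, and 11 in every fit over all backgrounds. With the mouse as a replicate block, IL-4 in Pparg fl/- cells with RSG had 10 calls in place of 11 and no other member count changed. The probe set of smallest spread gave more IL-4 calls in some lists, among them 7 in place of 4 for the other desaturases and elongases in Pparg fl/- cells with RSG, and fewer in others. Stromal markers that fell went from 5 to 3 in both Pparg fl/- backgrounds and over all backgrounds, and the acetyl-CoA and NADPH list from 1 to 0 in Pparg+/- cells with vehicle and from 0 to 1 with RSG. Ratios hold no brightness, so dim probe sets could not be told from bright ones, and an adjusted p that misses the threshold with 3 mice a group does not show that a gene did not respond.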

Other observations

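The 8 group means of each leading probe set were compared with those of all other genes after each profile was centred on its own mean, and the distance is the root mean square difference in log2 units. These are descriptions without a test, and the groups share mice. For Scd2, whose own profile had a root mean square of 1.4, the nearest was Hilpda (0.238), which encodes a lipid droplet protein, followed by Pla2g7 (0.245) and Rras2 (0.265). For Lpcat3 (0.397) the nearest were Hadhb (0.120) and Ech1 (0.126), both enzymes of fatty acid oxidation, and then Egln3 (0.134). For Fads1 (0.697) both probe sets of Camk1 came first (0.0733 and 0.0739), then Gmnn (0.0747), a regulator of DNA replication. For Fasn (0.571) the nearest were Cklf (0.0938), Cbx5 (0.0941) and Loxl3 (0.104). Among the members themselves the closest pair of leading probe sets was Elovl1 and Elovl5 (0.0970), and the next was Fasn and Fads1 (0.235).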
